A study of Mus musculus with 53 samples.

Results

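The regions described here were 1115 distal enhancers of naive extra-embryonic endoderm (nEnd) that carried no H3K4me1 peak in SOX2+ embryonic stem cells (ESCs), out of 7636 nEnd enhancers in all. They were selected on the histone peaks themselves. An nEnd enhancer was a region with H3K27ac peaks of both nEnd libraries that overlapped a region with H3K4me1 peaks of both nEnd libraries. It was kept when it held no enhancer of the naive media 2iLIF or NACL by the same definition, lay at least 1 kb from every annotated transcription start site, and overlapped no H3K4me1 peak of either SOX2+ library. Of the 3274 distal nEnd enhancers, 1769 held no naive enhancer. H3K4me1 of SOX2+ cells was absent from 1115 of these (63.0%), called unmarked primitive endoderm (PrE) enhancers below, and present at the other 654, called premarked PrE enhancers.

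All libraries came from mouse E14JU ESC clones named SGGC, in which endogenous SOX2 is fused to GFP and endogenous GATA6 to mCherry, and every group below carries both fusions. 2iLIF and NACL were naive ESC cultures, nEnd was the endoderm culture grown in RACL medium, and DP (positive for both reporters) and SOX2+ (positive for SOX2-GFP alone) were populations sorted from 1 medium, KOSR. All KOSR libraries came from clone B12, and both nEnd H3K4me1 libraries came from clone B9. The marks of nEnd, 2iLIF and NACL, and H3K4me1 of SOX2+ cells, chose the members, so their values are given without a test.

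H3K4me1 is laid down at enhancers, often before they become active, and H3K27ac marks the active ones. GATA6 is the transcription factor that drives PrE, the lineage that forms the extra-embryonic endoderm of the yolk sac, whereas SOX2 sustains the epiblast and pluripotency. CUT&RUN releases DNA around an antibody target with a tethered nuclease, and peaks mark where that DNA accumulates.

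Reference sequence around the GATA6 maximum of nEnd is shown for 8 of the 11 named members that held a GATA6 peak in both nEnd libraries and in all 3 DP libraries, because these were bound in both states. Each run spans 121 bases of GRCm38, plus strand, 5′ to 3′. Capitals mark the GATA string AGATAA and the SOX string CATTGT, or their reverse complements TTATCT and ACAATG.
Dab2: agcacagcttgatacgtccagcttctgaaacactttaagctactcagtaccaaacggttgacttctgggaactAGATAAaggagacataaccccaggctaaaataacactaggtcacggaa
Fgfr2: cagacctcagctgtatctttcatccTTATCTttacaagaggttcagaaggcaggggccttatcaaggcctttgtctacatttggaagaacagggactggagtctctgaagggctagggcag
Dkk1: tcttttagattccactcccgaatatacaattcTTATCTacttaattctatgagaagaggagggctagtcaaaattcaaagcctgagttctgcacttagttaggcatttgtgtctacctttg
Scg2: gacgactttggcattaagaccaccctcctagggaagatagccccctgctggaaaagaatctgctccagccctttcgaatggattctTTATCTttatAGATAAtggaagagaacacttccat
Tgfbr2: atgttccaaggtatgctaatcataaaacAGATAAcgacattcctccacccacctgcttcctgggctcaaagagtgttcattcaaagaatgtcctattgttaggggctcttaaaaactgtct
Akap13: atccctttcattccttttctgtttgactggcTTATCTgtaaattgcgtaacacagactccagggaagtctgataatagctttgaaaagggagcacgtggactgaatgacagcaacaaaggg
Galnt17: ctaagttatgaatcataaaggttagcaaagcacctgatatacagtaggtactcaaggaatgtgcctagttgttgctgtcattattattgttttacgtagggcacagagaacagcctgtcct
Pik3r1: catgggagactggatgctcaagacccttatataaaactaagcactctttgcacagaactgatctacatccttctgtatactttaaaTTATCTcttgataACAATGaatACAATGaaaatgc
The members are named by the nearest protein-coding gene, and the runs lie at chr15:6244296-6244416, chr7:130149115-130149235, chr19:30526920-30527040, chr1:79454396-79454516, chr9:116306470-116306590, chr7:75415671-75415791, chr5:131027142-131027262 and chr13:101912963-101913083. A GATA string was present in 7 of the 8 runs and a SOX string in 1, the run near Pik3r1, which held 2. The run near Scg2 held 2 GATA strings, and the run near Galnt17 held neither string.

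Peak lists set what each library could show. Peak numbers ranged from 4859 to 29623 in the SOX2 libraries other than DP experiment B and from 3821 to 32510 in the GATA6 libraries other than DP experiment B. The DP libraries of experiment B held only 1378 SOX2 and 1391 GATA6 peaks, so the tests and counts that use them are also given without them, and other values by experiment. At 20 kb or less from Gata6, Gata4, Sox17, Dab2, Lama1 and Col4a1, both nEnd H3K27ac and both nEnd GATA6 libraries had peaks. SOX2 peaks of all 3 SOX2+ and all 3 DP libraries lay near Nanog, Pou5f1 and Esrrb, and near Sox2 itself in 3 SOX2+ and 2 DP libraries.

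The unmarked PrE enhancers were narrower than the other nEnd enhancers, and more of them lay far from genes. Their median width was 5008 bp (quartiles 3740 and 7212 bp), against 5936 bp for premarked PrE enhancers and 5984 bp for all distal nEnd enhancers. The nearest protein-coding start site lay at a median of 20.1 kb, against 20.3 kb and 19 kb, a distance partly set by the 1 kb rule, and 147 members (13.2%) were over 100 kb away, against 8.41% of premarked and 9.71% of all distal nEnd enhancers. The strongest nEnd H3K27ac maximum fell in an intron of a protein-coding gene in 520 members (46.6%), in an annotated exon in 36 (3.23%) and outside both in 559 (50.1%), against 48.4%, 2.08% and 49.6% of all distal nEnd enhancers. At the distance limit, the closest members lay 1058 and 1082 bp from a start site, and the closest excluded regions 984 and 987 bp. In all, 524 regions with the same marks were left out because they lay nearer than 1 kb. In signal the members were middling for nEnd H3K27ac, with their strongest peak at a median percentile of 50.3 in both libraries, against 61.3 and 61.0 at premarked PrE enhancers.

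H3K27ac of naive cells was less frequent here than over all distal nEnd enhancers, of which some hold naive enhancers, while the members were chosen to hold none. Peaks of the 2iLIF libraries touched 623 (clone B9, 55.9%) and 821 (clone B12, 73.6%) members, and those of NACL 562 (50.4%) and 788 (70.7%). Over all distal nEnd enhancers these shares were 79.7%, 87.8%, 76.3% and 86.8%, and at premarked PrE enhancers 76.8%, 85.8%, 71.6% and 87.2%. These 4 lists cover 359 to 588 Mb each, and in the central 1 kb the shares were 33.8% to 55.9%. H3K4me1 of the naive libraries touched 18 to 151 members (1.61% to 13.5%), against 39.6% to 61.1% of all distal nEnd enhancers and 9.94% to 59.2% of premarked ones. In SOX2+ cells the H3K27ac lists were short, with 13514 (A) and 14722 (B) peaks that cover 26.2 and 28.6 Mb, which limits what they can show. They had a peak at 4 members in experiment A and 13 in experiment B, of which 1 was shared. That 1 member is 0.0897% of 1115, against 13.8% of all distal nEnd enhancers with a SOX2+ H3K27ac peak in both libraries.

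GATA6 occupied most of the unmarked enhancers in nEnd. The B9 library had a peak at 928 members (83.2%, exact binomial 95% interval 80.9% to 85.4%) and the B12 library at 975 (87.4%, 85.4% to 89.3%). Intervals over regions cover counting error only, since regions are not replicates of a condition. Both libraries had one at 906 members (81.3%), against 74.8% of all distal nEnd enhancers, and neither had one at 118. GATA6 peaks, where present, lay close to the strongest H3K27ac maximum, which need not be the middle of the region. The median distance from it to the nearest GATA6 maximum was 88 bp (B9) and 87 bp (B12), against 94 bp in both libraries at premarked PrE enhancers. Median percentiles of these peaks within their libraries were 79.2 and 82.0, close to 74.7 and 81.1 at premarked and 75.9 and 80.6 at all distal nEnd enhancers.

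In DP cells GATA6 was found at a small share of the same enhancers. Peaks lay at 165 members in experiment A (14.8%, 12.8% to 17%), 106 in A1 (9.51%, 7.85% to 11.4%) and 35 in B (3.14%, 2.2% to 4.34%). Any of the 3 libraries had a peak at 174 members (15.6%), against 23.8% of all distal nEnd enhancers, and at least 2 had one at 99 (8.88%), against 13.7%. Without experiment B, any library had one at 174 members and both at 97 (8.7%), against 23.7% and 13.5%. In these bulk libraries, binding in fewer cells and weaker binding in each cell cannot be told apart. In experiment A the GATA6 list carries the tag sub02, unexplained in the sources used here, and leaving it out left 108 members with a DP GATA6 peak. Nearly every DP GATA6 peak at a member lay on an nEnd GATA6 peak, in 178 of 180 (A), 111 of 112 (A1) and 35 of 36 (B), while 63.4% to 77.4% of all DP GATA6 peaks did. The premarked PrE enhancers shared this, at 97.4%, 97.3% and 94.9%.

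The members bound in DP cells had higher-ranking nEnd GATA6 peaks than the others. Members without a DP GATA6 peak had nEnd peaks at median percentiles of 74.6 (B9) and 78.2 (B12). With 1 DP library the medians were 89.4 and 93.3, and with at least 2 they were 95.5 and 97.7. Members with an nEnd peak also held more such peaks each in this order, with means of 1.46, 1.64 and 1.7 (B9). In B12 these means were 1.67, 1.99 and 2.13, and the part of peak number was not tested. The GATA string followed the same order. In the 200 bp around the nEnd GATA6 maximum, AGATAA was present in 451 of 824 members without DP GATA6 (54.7%), 57 of 75 with 1 DP library (76.0%) and 89 of 98 with at least 2 (90.8%, 83.3% to 95.7%).

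The nEnd marks chose the members, so the share of GATA6 peaks placed at them is given for DP cells and nEnd with no test. The DP libraries placed 2.16% (A), 2.93% (A1) and 2.59% (B) of their peaks there, and the nEnd libraries 5.74% (B9) and 5.23% (B12). The means were 2.56% ± 0.384 (SD, n = 3) and 5.48% ± 0.362 (SD, n = 2). With 1391 peaks kept per GATA6 list, ranked by signal, they were 3.33% and 13.9%. Among GATA6 peaks at either class of PrE enhancer, those at unmarked enhancers made up 48.7% ± 1.3 of the DP total and 60.9% ± 1.2 of the nEnd total (exact permutation test, 2-sided, p = 0.2, the smallest that 3 against 2 libraries allow). Without experiment B that difference was -11.8 points.

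**Figure D1:**
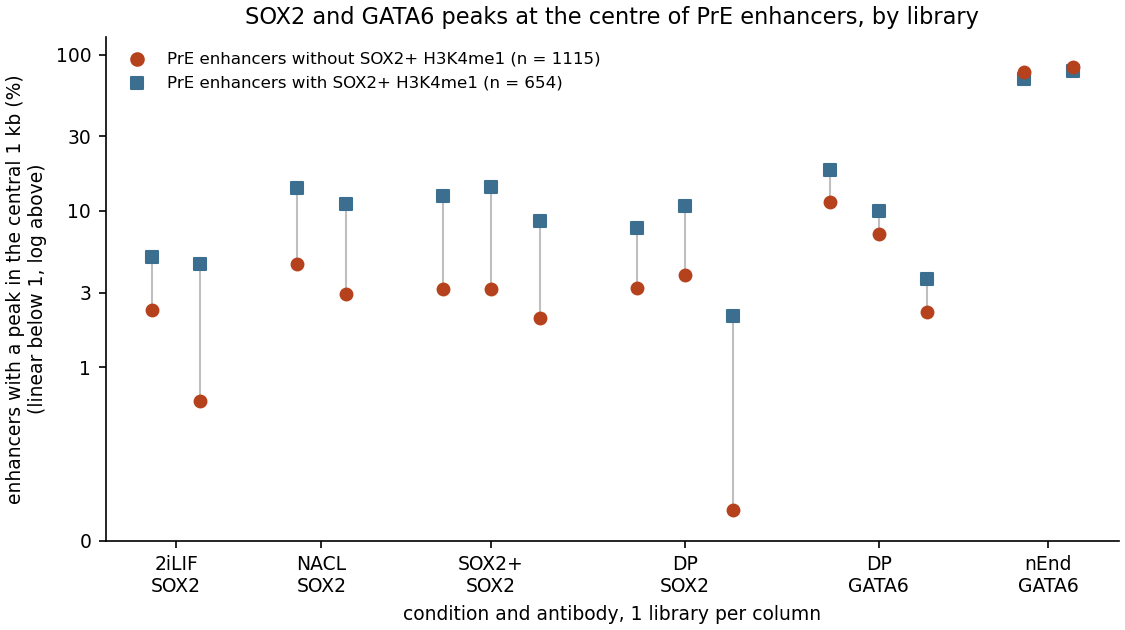
Percent of enhancers (y axis, linear below 1 and log above) with a SOX2 or GATA6 peak in the 1 kb around the strongest nEnd H3K27ac maximum, 1 library per column in replicate order, for 1115 unmarked (circles) and 654 premarked (squares) PrE enhancers. Circles lie below squares in all 10 SOX2 libraries and all 3 DP GATA6 libraries, and above them in both nEnd GATA6 libraries.

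SOX2, measured in the 4 groups other than nEnd, was scarce at the unmarked enhancers in each of them. In the central 1 kb it was found at 2.33% (B9) and 0.807% (B12) of members in 2iLIF, 4.57% and 2.96% in NACL, 3.14% (A), 3.14% (A1) and 2.06% (B) in SOX2+ cells, and 3.23% (A), 3.86% (A1) and 0.179% (B) in DP cells. The premarked PrE enhancers had more in each of these 10 libraries, from 2.14% in DP experiment B to 14.2% in SOX2+ experiment A1. The mean was 2.63% ± 1.33 (SD, n = 10 libraries) at unmarked and 9.07% ± 4.17 at premarked enhancers, a difference of -6.44 percentage points ± 3.11 (exact sign-flip test over libraries, 2-sided, p = 0.00195, the smallest possible). Without DP experiment B it was -6.94 points (exact sign-flip p = 0.00391). With 1378 peaks kept per list it was -1.89 points and over whole regions -11.6 points, lower at unmarked enhancers in all 10 libraries each time. The source label of the NACL B12 SOX2 library also names IgG, while its title and antibody label give SOX2, and without it the difference was -6.26 points (exact sign-flip p = 0.00391). All 10 libraries gave a difference of the same sign, and that alone gives the smallest possible p, whatever the spread. Libraries of the same clone or experiment are not fully independent, and all were scored on the same regions. The p thus describes agreement in direction between these libraries only. For GATA6 the same contrast had no common direction, with a mean difference of 0.139 percentage points ± 5.71 (SD, n = 5, exact sign-flip test, 2-sided, p = 0.938, smallest possible 0.062), and 0.531 points without DP experiment B (exact sign-flip p = 0.875). It ran from -6.81 to -1.43 points in the 3 DP libraries and was 7.44 and 4.34 points in the nEnd libraries.

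Over whole regions, a SOX2 peak of at least 2 of 3 SOX2+ libraries lay at 42 members (3.77%), against 21.9% of all distal nEnd enhancers, and one of at least 2 of the 4 naive libraries at 54 (4.84%), against 25.1%. DP SOX2 peaks of at least 2 libraries lay at 38 members (3.41%), against 12.1%. Any DP library had one at 63 members (5.65%), against 18.1%. Without experiment B these counts were still 38 and 63.

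As a share of a library's own peaks, SOX2 at the unmarked enhancers was higher in 2 DP libraries and not in the third. DP experiment A placed 48 of 4859 peaks there (0.988%), A1 57 of 5320 (1.07%) and B 2 of 1378 (0.145%). The SOX2+ libraries placed 0.297% (A), 0.272% (A1) and 0.295% (B) there, the 2iLIF libraries 0.281% and 0.171%, and the NACL libraries 0.267% and 0.292%. DP experiments A and A1 thus lay above all 7 other libraries, and DP experiment B below all of them. The mean was 0.735% ± 0.512 (SD, n = 3) in DP cells and 0.288% ± 0.0141 (n = 3) in SOX2+ cells (exact permutation test, 2-sided, p = 0.4, adjusted 0.4 over 3 SOX2 comparisons, smallest possible 0.1). Against the naive mean of 0.253% ± 0.0556 (n = 4), the exact permutation p was 0.286 for DP and 0.286 for SOX2+ cells (both adjusted 0.4, smallest possible 0.0571). With experiment as a block, the differences were 0.691 (A), 0.8 (A1) and -0.150 (B) percentage points, and exact sign flips gave p = 0.5. Without DP experiment B the difference was 0.742 points, and the exact permutation p of 0.2 was then the smallest possible, and the difference from the naive libraries was 0.777 points (exact permutation p = 0.133).

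With 1378 peaks kept per SOX2 list, ranked by signal, 9 (DP A), 10 (DP A1) and 2 (DP B) peaks lay at members, against 0 in each of the 3 SOX2+ libraries and 1 in the 4 naive libraries together. A count of 0 in 1378 allows a share of up to 0.218%. The share in DP B, 0.145%, lies under that limit, so it was not shown to exceed the SOX2+ libraries. This number is all of DP B but only the strongest part of the other lists. The comparison was repeated without DP B at 4859 peaks per list, chosen after seeing the data, and this again is all of DP A but only the strongest part of the SOX2+ and naive lists. SOX2+ peaks at members ranked low in their libraries, at median percentiles of 33.9 (A), 36.6 (A1) and 21.7 (B), so such a limit removes many of them. At 4859 peaks, 48 (A) and 53 (A1) DP peaks lay at members, against 0, 4 and 5 in the SOX2+ libraries and 3 to 8 in the naive libraries, a difference of 0.978 points from SOX2+ (exact permutation p = 0.2, the smallest possible) and 0.916 points from naive cells (exact permutation p = 0.133). The comparison relative to the premarked enhancers turned on DP experiment B. The unmarked enhancers' share of SOX2 peaks at either class was 35.8% (A), 34.5% (A1) and 8.33% (B) in DP cells and 22% to 23.4% in SOX2+ cells, with a difference in means of 3.55 points (exact permutation test, 2-sided, p = 1, smallest possible 0.1). Without DP experiment B both DP libraries lay above all 3 SOX2+ libraries, by 12.5 points in the means (exact permutation p = 0.2, the smallest possible).

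**Figure D2:**
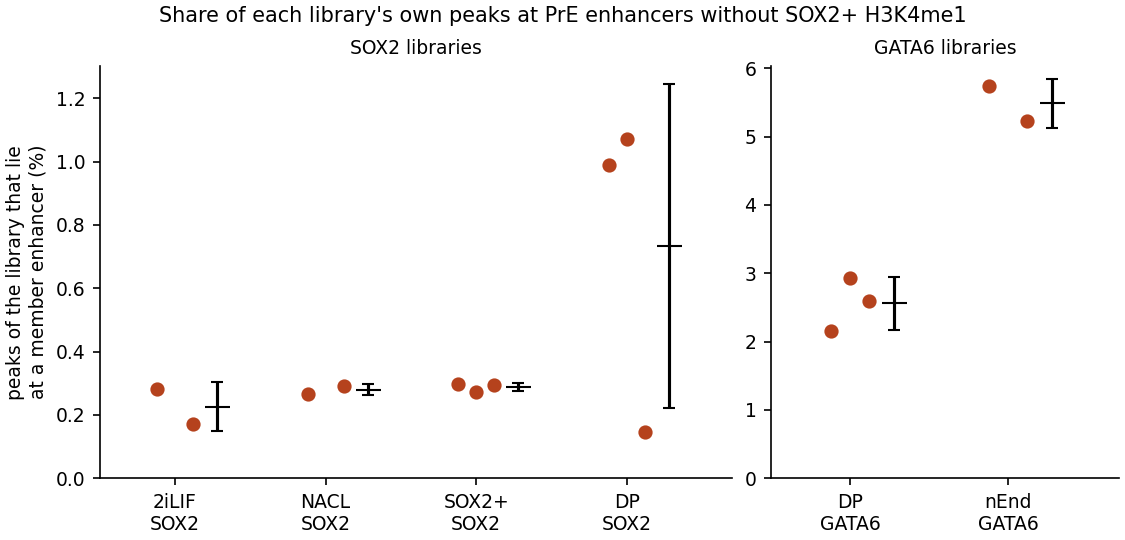
Percent of each library's own SOX2 (left) or GATA6 (right) peaks that lie at an unmarked PrE enhancer, with 1 point per library in replicate order and the mean ± SD as a bar beside them. DP SOX2 libraries A and A1 stand at 0.988% and 1.07% and B at 0.145%, while the GATA6 points of DP cells lie between 2.16% and 2.93%, below those of nEnd.

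SOX2 at these enhancers in DP cells lay mostly where GATA6 did. Of the 48 DP SOX2 peaks at members in experiment A, 36 (75%) overlapped a GATA6 peak of the same experiment, as did 43 of 57 (75.4%) in A1 and both in B. Among all DP SOX2 peaks the shares were 36%, 25.6% and 11%, and at premarked PrE enhancers 50%, 43.5% and 9.09%. Many of these sites had no SOX2 peak in the other states. The members were chosen to lack SOX2+ H3K4me1 and naive enhancers, and SOX2 of those states was scarce at them, so this is partly built in. In experiment A, 27 of the 48 (56.2%) and in A1 34 of the 57 (59.6%) overlapped no SOX2 peak of any SOX2+, 2iLIF or NACL library, against 13.4% and 12.5% of all DP SOX2 peaks and 18.6% and 23.1% of those at premarked PrE enhancers. In experiment B it was 1 of 2. The intervals for the SOX string overlapped, since CATTGT was present in the central 500 bp of 33 of the 63 members with a DP SOX2 peak (52.4%, 39.4% to 65.1%) and 513 of 1052 without one (48.8%, 45.7% to 51.8%).

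H3K4me1 was found at 555 unmarked enhancers in DP cells (49.8%, exact binomial 95% interval 46.8% to 52.8%), from 1 library. The background over all distal nEnd enhancers was 81.4%, and the share at premarked PrE enhancers was 97.6%. Since the members were picked for lacking the mark in SOX2+ cells, no test of DP against SOX2+ was made. Distal enhancers of naive cells alone that also lacked SOX2+ H3K4me1 (4252 regions) are the closest counterpart, and 37.4% of them (36.0% to 38.9%) had a DP H3K4me1 peak. In the central 1 kb, a window of equal width, the shares were 39.1% at unmarked PrE enhancers, 35.7% at these naive enhancers and 81.5% at premarked PrE enhancers. Naive regions were as narrow as 424 bp, so this window can reach outside them. A SOX2+ H3K4me1 peak touched 4.21% (A) and 4.96% (B) of the naive windows and 0 of the unmarked ones, so these 2 classes are not fully matched there. The DP library holds 130749 H3K4me1 peaks, against 58085 and 78354 in SOX2+ cells. Held to its 58085 strongest peaks it touched 22.6% of members. The DP peaks at members were of middling signal, at a median percentile of 52.8, against 79.3 at premarked enhancers.

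H3K27ac was found at 283 unmarked enhancers in DP cells (25.4%, 22.8% to 28.0%), against 54.6% of all distal nEnd enhancers, 52.0% of premarked PrE enhancers and 11.1% (10.2% to 12.1%) of the naive counterpart. In the central 1 kb, with the same limit for the naive windows, the shares were 15.8%, 34.9% and 9.60% for unmarked, premarked and naive enhancers. Held to 13514 peaks, the number of the smaller SOX2+ library, it touched 2.06% of members. Both marks were present at 213 members, H3K4me1 alone at 342, H3K27ac alone at 70 and neither at 490.

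**Figure D3:**
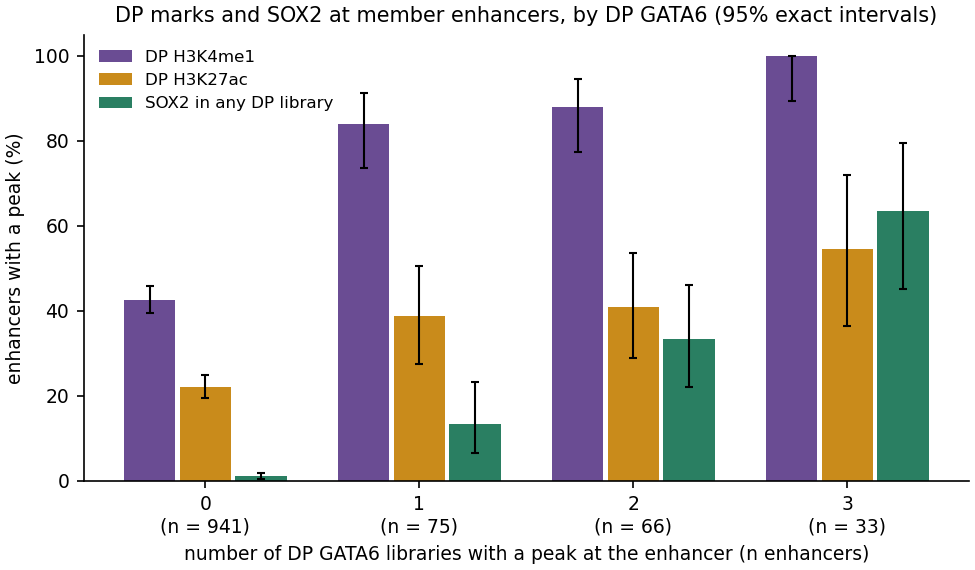
Percent of unmarked PrE enhancers (y axis) with a DP H3K4me1 peak, a DP H3K27ac peak or a SOX2 peak in any DP library, by the number of DP GATA6 libraries with a peak there (x axis). Error bars are exact binomial 95% intervals over regions, and H3K4me1 goes from 42.6% of the 941 members without DP GATA6 to 100% of the 33 with all 3 libraries.

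The DP marks went with DP GATA6. H3K4me1 was present at 401 of 941 members without a DP GATA6 peak (42.6%, 39.4% to 45.8%) and at 84.0%, 87.9% and 100% of members with a peak in 1, 2 and 3 DP GATA6 libraries, or 154 of 174 in all (88.5%, 82.8% to 92.8%). For H3K27ac the shares were 22.2% without and 42.5% with DP GATA6. Over all distal nEnd enhancers H3K4me1 was at 76.6% without and 96.9% with DP GATA6 and H3K27ac at 47.4% and 77.6%, and at premarked PrE enhancers these were 97.1% and 98.8%, and 43.3% and 77.2%. SOX2 was present in any DP library at 1.06% of members without DP GATA6 and at 13.3%, 33.3% and 63.6% of those with 1, 2 and 3 libraries. Width was not the same between these groups, with medians of 4903 bp without and 5477 bp with DP GATA6. In each of 4 width classes of about equal size, H3K4me1 was at 80.0% to 91.3% of members with and 38.8% to 47.6% of members without DP GATA6, and in the central 1 kb at 83.8% and 32.9%. This co-occurrence was not particular to the unmarked PrE enhancers. Of the naive counterpart, 86.2% of 80 regions with DP GATA6 and 36.5% of 4172 without it had DP H3K4me1, and 43.8% and 10.5% had DP H3K27ac. The DP H3K4me1 library and the largest DP GATA6 library carry the same experiment letter, A, and without that GATA6 library the share with H3K4me1 was 89.8% of 108. The nEnd GATA6 percentile also moves with DP GATA6, and its part was not tested. Among the members without DP GATA6, DP H3K4me1 lay at 57 of 117 with no nEnd GATA6 peak (48.7%, 39.4% to 58.1%). It lay at 303 of 734 with a peak in both nEnd libraries (41.3%, 37.7% to 44.9%). These intervals overlap, which does not show equal shares, and the presence of a peak is not its percentile.

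The GATA and SOX strings were more frequent near the H3K27ac maximum in unmarked than in premarked enhancers. In the 500 bp around the H3K27ac maximum, on both strands, AGATAA was present in 599 members (53.7%, 50.7% to 56.7%), 43.1% (39.3% to 47.0%) of premarked PrE enhancers, 46.7% of all distal nEnd enhancers and 26.7% of the naive counterpart. CATTGT was present in 546 members (49.0%, 46.0% to 51.9%), 39.4% (35.7% to 43.3%) of premarked ones, 42.5% of all distal and 29% of naive ones. The intervals of the PrE classes do not overlap for either string in this window, but over whole regions they do, at 97.2% and 96.3% for AGATAA and 96.6% and 95.4% for CATTGT. Base composition differed too, with a median GC content of 45.2% in members and 46.8% in premarked enhancers, and its part was not tested. The strings gathered at the nEnd GATA6 maximum. Within 100 bp of it, AGATAA occurred at 3.92 matches per kb, against 0.698 between 500 bp and 1 kb away, and CATTGT at 2.18 against 0.631. Other strings were rarer and closer between the PrE classes. The octamer ATGCAAAT bound by POU5F1 was in 2.78% of members and 4.49% of naive enhancers, the ESRRB string TCAAGGTCA in 0.807% and 2.3%, the forkhead string TGTTTAC in 15.4% and 9.27%, the HNF4A string CAAAGTCCA in 1.61% and 1.11%, the KLF string CCACACCC in 5.65% and 6.02%, the TEAD string GGAATG in 34.9% and 28.3%, the AP-1 string TGANTCA in 24.6% and 18.2%, and the TCF/LEF string ATCAAAG in 9.06% and 12.3%. For each of these 8 the interval in members overlapped that in premarked enhancers. A match describes the letters only, and is not evidence of binding.

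**Figure D4:**
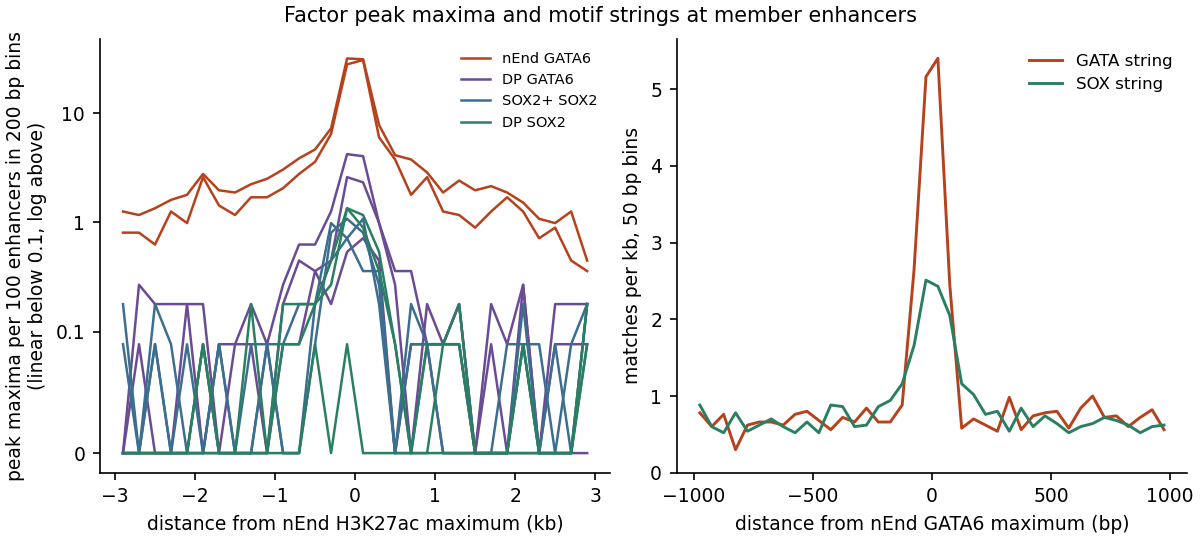
Left, maxima of factor peaks per 100 unmarked PrE enhancers in 200 bp bins (y axis, linear below 0.1 and log above) against distance from the nEnd H3K27ac maximum, 1 line per library. Right, matches per kb of the GATA and SOX strings in 50 bp bins against distance from the nEnd GATA6 maximum, for the 997 members with an nEnd GATA6 peak, with both strings peaking in the central bins.

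The nearest protein-coding genes numbered 891, of which 725 had 1 member, 129 had 2 and 37 had 3 or more. Premarked PrE enhancers lay nearest to 567 genes, and 137 genes were shared, 15.4% of the former and 24.2% of the latter. A nearest gene is a name for a place and is not shown to be the target.

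Endoderm transcription factors contributed 3 of the 13 listed genes reported here with 8 members, all with GATA6 in both nEnd libraries, against 81.3% of all 1115 members. Foxq1, a forkhead factor, had 5 members between 19.2 and 275 kb from its start site. The nearest, chr13:31529601-31536953, had GATA6 in DP experiments A and A1 and DP H3K4me1, and 2 others had DP H3K4me1, 1 of them with DP H3K27ac. Foxa2, a pioneer factor of endoderm, had 2 members, 1 with DP H3K4me1 (chr2:148114389-148129844). Sox17, a PrE factor of the SOX family, had 1 at chr1:4569406-4578021 with DP H3K4me1 and a SOX2 peak in 1 SOX2+ library. Of these 8 members, 5 had DP H3K4me1, 1 DP H3K27ac, 1 DP GATA6 and 0 DP SOX2, where the shares over all 1115 members were 49.8%, 25.4%, 15.6% and 5.65%. With 8 members, nothing particular to this list can be read from these counts.

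Among 15 genes of endocytosis and nutrient transport, Dab2 and Ttr had members. Dab2, an endocytic adaptor of extra-embryonic endoderm, had the enhancer chr15:6236165-6250379, 49.4 kb from its start site, with GATA6 in both nEnd and all 3 DP libraries, SOX2 in DP experiments A and A1 and in 2 SOX2+ libraries, and DP H3K4me1 without DP H3K27ac. Its second member, in an intron, had GATA6 in 1 nEnd library and no other factor or DP mark. Ttr, which carries thyroid hormone and retinol, had 1 with GATA6 in both nEnd and in DP experiments A and A1, and DP H3K4me1.

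Signalling genes gave 4 of 16 with 6 members, all bound by GATA6 in both nEnd libraries, against 81.3% of all 1115 members. With 6 members, nothing particular to this list can be read from that. Fgfr2, a receptor for the FGF signals that direct PrE, had 2. The nearer, chr7:130139901-130151301, had GATA6 in all 3 DP libraries, SOX2 in DP A and A1 and in no SOX2+ or naive library, and both DP marks. Its nEnd GATA6 peaks were at percentiles 99.8 and 100 of their libraries. Dkk1, a secreted Wnt inhibitor, had chr19:30524034-30529816, with GATA6 in all 3 DP libraries, SOX2 in A1 and both DP marks. Bmp2, a BMP ligand, and Cited1, a transcriptional co-activator, had 1 and 2 members with no DP mark and no factor outside nEnd.

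Lama1, the laminin chain of embryonic basement membrane, was the only one of 15 basement membrane genes with a member, which had DP H3K4me1 and no DP factor. Of 9 parietal endoderm genes, Krt19, an epithelial keratin, had 1 member and Tmprss2, a membrane serine protease, had 2, none with a DP mark or DP factor. SOX2 of 2 SOX2+ libraries lay at 1 of the Tmprss2 members. Of 16 pluripotency genes Klf4 had 1, with GATA6 in both nEnd libraries and no DP mark or factor. The 12 neural and mesoderm genes had 0.

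Outside the lists, Usp29 and Adamts9 had 6 members each, and Clnk, Dapk2 and Tgfbr2 5 each, followed by Ryr2, Bend5, Zcchc13 and App with 4 each. The counts below can be set beside the shares over all 1115 members. These were 81.3% for GATA6 in both nEnd libraries, 49.8% for DP H3K4me1, 25.4% for DP H3K27ac and 15.6% for GATA6 in any DP library. With 4 to 6 members each and no test, no difference between these clusters can be read. The 6 members of Adamts9, a matrix metalloprotease gene, all had GATA6 in both nEnd libraries, 1 had DP H3K4me1 and 0 had DP GATA6. Of the 4 at Ryr2, 3 had DP H3K4me1, 3 DP H3K27ac and 2 DP GATA6. At Tgfbr2, the TGF-beta receptor gene, 1 of 5 (chr9:116304468-116309536) had GATA6 and SOX2 in all 3 DP libraries, SOX2 in 2 SOX2+ libraries and both DP marks, and the other 4 had neither DP factor.

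Members with a peak in the most of the 15 SOX2 and GATA6 libraries were near Scg2 (13 libraries), Lrguk (12), Polr3a (11), Hpgds, Peg10, Tgfbr2 and Megf9 (10 each), followed by 7 members with 9 libraries, of which the widest, near Dab2, is described with them. All 8 had nEnd GATA6 in both libraries and DP SOX2 in at least 2, which largely restates how they were picked. All 8 also had DP H3K4me1, as did 92.1% of the 63 members with a SOX2 peak in any DP library. The member at Scg2, a secretogranin gene, chr1:79452089-79455833, was also bound by SOX2 in 2 SOX2+ libraries and all 4 naive ones. Such breadth was rare, since 658 members had a peak in exactly 2 of the 15 libraries and 108 in 0.

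The fullest DP state, both marks with SOX2 and GATA6 in at least 2 DP libraries each, was found at 20 members (1.79%, 1.1% to 2.76%), against 6.02% of all distal nEnd enhancers and 4.43% (2.99% to 6.31%) of premarked ones. Of the 8 with the strongest DP H3K4me1, those near Galnt17, Atxn7l3b, Fgfr2, Pik3r1, Rap2b and Rreb1 had no SOX2 peak in any SOX2+, 2iLIF or NACL library, while that near Akap13 had one in 1 2iLIF and 1 NACL library and that near Trpv1 in 1 NACL library. Lacking such a peak was usual, since any SOX2+ library had one at only 67 of all 1115 members (6.01%). Others of the 20 did have one, with SOX2 in all 3 SOX2+ libraries near Hpgds and Peg10 and in 2 near Tgfbr2. The member at Galnt17, a glycosyltransferase gene, chr5:131025510-131030394, had both factors in all 3 DP libraries. Without DP experiment B, which gave SOX2 at only 2 members, the count stayed at 20.

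**Figure D5:**
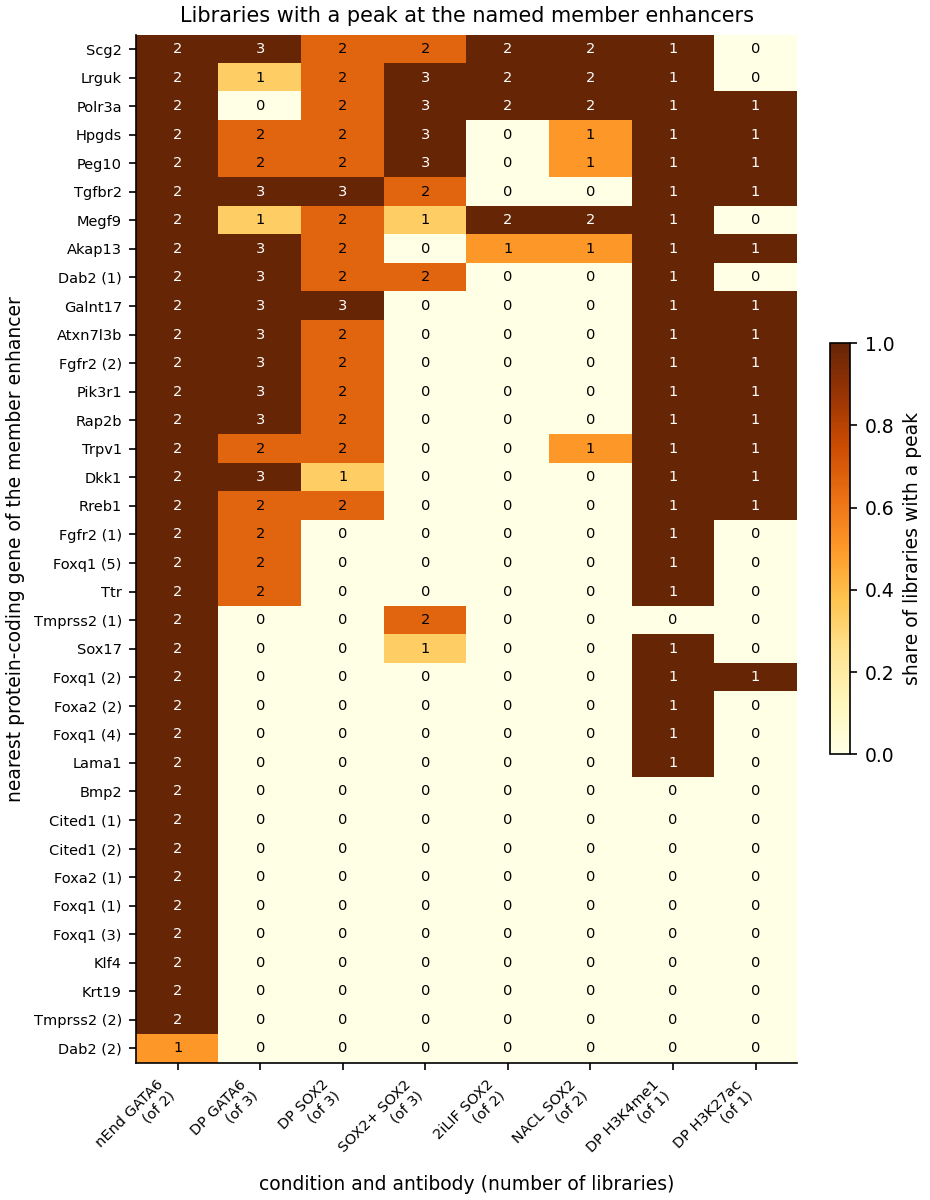
Number of libraries with a peak (number and colour, as a share of the libraries of that condition and antibody) at the members of listed genes, those bound in the most libraries and those with the fullest DP state, ordered by the number of SOX2 and GATA6 libraries. Both nEnd GATA6 libraries have a peak at every row shown except 1 Dab2 member, and DP H3K4me1 is present in every row with a DP GATA6 or DP SOX2 peak, while DP H3K27ac is absent from some of them, such as Scg2 and Lrguk.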

How the data were processed

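Peak lists of 35 CUT&RUN libraries were used, 33 of them assigned to a group by the labels, and 18 IgG samples had no list of their own. Per the labels, alignment was to GRCm38/mm10, and the submitters' processing notes name cutadapt 1.18, Bowtie2 2.3.4.1, SAMtools 1.9, Picard 2.9.1, bedtools 2.27.1 and deepTools 3.2.0, with no order. The authors called peaks per library against IgG with SEACR. Each deposited line holds an interval, its total and maximum signal, and the interval of the maximum. The histone lists are named relaxed and the factor lists stringent, while the study's methods state the reverse, so the setting behind each list is uncertain. Read depth is unknown, and the number of peaks (1378 to 401853 per library) limits what each list can show.

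On 21 chromosomes, 1997019 peaks were read, and 0 ended past a chromosome end of GRCm38. Start sites came from GENCODE M21. Members were found with an overlap of 1 bp, and factor peaks were compared in whole regions or in the central 1 kb. Signal was compared only as a percentile within a library. Shares carry exact Clopper-Pearson 95% intervals. Libraries were compared by exact permutation tests and, between enhancer classes, exact sign flips, all 2-sided, with Benjamini-Hochberg adjustment over the 3 SOX2 comparisons and a threshold of 0.05. DP and SOX2+ libraries share an experiment letter (A, A1, B) in their labels, which was taken as a pairing, and the test was repeated with experiment as a block. Over 28916 regions, the deviations of same-letter libraries correlated at 0.0268 (A), 0.0195 (A1) and 0.0361 (B), so the pairing rests on the labels.

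Named genes are those of the gene lists with a member, the 10 others with the most members, the 8 members with peaks in the most factor libraries, and up to 8 with the fullest DP state, except that 2 of these genes are not reported here. The members, gene lists and strings were chosen with earlier results of these data known. Python 3.11.15, numpy 2.4.6, pandas 2.3.3 and SciPy 1.17.1 were used, and the overlap and test code was tested on simulated data. Alternatives varied the peaks used, overlap, distance to start sites, windows and the libraries included. The 2 libraries that the labels put in no group entered no comparison.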

Additional observations from a re-analysis of the deposited data

Results flagged for a closer look

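Both libraries whose labels disagree on their population (DP in the title, SOX2+ in the source) were kept out of every comparison but had peaks at the unmarked PrE enhancers. The H3K4me1 library touched 334 of 1115 members (30%, exact binomial 95% interval 27.3% to 32.7%) against 88.8% of premarked PrE enhancers and 71.8% of all distal nEnd enhancers. The H3K27ac library touched 28 members (2.51%, 1.68% to 3.61%) against 18.5% and 25.5%. A count of 0 would allow up to 0.269%. The population these values describe is not known.

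The contrast of unmarked with premarked enhancers had opposite directions in the GATA6 libraries of the 2 states. In the central 1 kb it averaged -3.7 percentage points over the DP libraries, all 3 of them negative, and 5.89 points over the nEnd libraries, both of them positive. This difference between states was not tested, and the nEnd marks chose the members.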

How the results depend on the processing

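Of 114 values under alternatives, 88 kept their direction and call or stayed close to the reported value, 18 moved and 8 reversed. No cause was tested. The number of members was 3647 with a peak in either nEnd library of each mark, 459 with the stronger 50% of peaks, and 1148 to 1891 when 1 library was left out (1685 and 1891 without nEnd H3K27ac replicates 1 and 2, 1768 without nEnd H3K4me1 replicate 2). For DP H3K4me1 the share of members was 26.3% with the stronger 50% of peaks, 22.6% at the peak number of the smaller SOX2+ library and 39.1% in the central 1 kb, and for DP H3K27ac it was 12.6%, 2.06% and 15.8%. AGATAA was in 40.9% (300 bp), 70.7% (1 kb) and 97.2% (whole region), and CATTGT in 38.1%, 64.4% and 96.6%, against 31.7%, 60.6% and 96.3%, and 30%, 54.7% and 95.4%, of premarked enhancers. The GATA6 contrast with premarked enhancers reversed to -2.49 (whole region) and -0.392 points (2 kb), and ranged from -1.69 to 1.88 when 1 library was left out (-1.69 and -0.911 without nEnd replicates 1 and 2). The SOX2+ against naive SOX2 difference reversed to -0.0416 (stronger 50%) and -0.0181 points (equal peak numbers), and ranged from 0.00807 to 0.0486 with 1 library left out.

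With 1 library left out, the DP against SOX2+ SOX2 difference ranged from 0.279 to 0.742 points, DP against naive from 0.314 to 0.777, DP against nEnd GATA6 from -3.18 to -2.66, and the SOX2 contrast with premarked enhancers from -6.94 to -5.92 (exact sign-flip p = 0.00391 each time). Peaks and windows moved the last 2 further, the GATA6 difference to -10.6 (equal peak numbers), -4.43 (stronger 50%) and -1.63 (1 kb window), and the SOX2 contrast to -1.89 (equal peak numbers), -4.32 (stronger 50%) and -11.6 (whole region), with the direction kept. With experiment as a replicate block, the DP against SOX2+ difference was 0.447 points (exact sign-flip p = 0.5, and 3 pairs cannot go below 0.25), and the block changed no call. Some alternatives were added after seeing the data. In these, the number of members with DP GATA6 ranged from 108 (without replicate 1) to 174, H3K4me1 among them from 88.5% to 89.8%, the unmarked share of SOX2 peaks at either class from -1.24 (without DP replicate 1) and -0.603 (without replicate 2) to 12.5 points, and that of GATA6 peaks from -13 to -11.3. Peak numbers, DP marks from 1 library each and at most 4 libraries per factor and group limit the comparisons.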
